A study of Mus musculus with 4 samples.

Results

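The astrocyte genes described here are 31 genes known to be enriched in astrocytes, taken by symbol from a fixed list and not by any measured value. All 31 were found among the 25044 entries of the deposited tables, and all 31 were among the 17630 genes with a mean level of at least 0.1 FPKM, the filter used throughout. FPKM, the number of fragments scaled to transcript length and to library size, is a level per length, so it was set between genes within libraries. Between libraries it also carries shifts in composition, and summed FPKM ran from 428612 (replicate 2) to 442836 (replicate 1). No header names the unit, which is inferred from the values. RNA-seq was done on 4 samples of PSTh tissue (the parasubthalamic nucleus, a small glutamatergic cell group of the caudal hypothalamus) from naive C57BL/6 mice. The series was made to find molecules that bear on stress-related activity of this region, and it has no stressed and no genetically altered animals. The 4 libraries therefore form 1 group, replicates 1 to 4, and every comparison below is between genes within libraries or between the libraries themselves. The labels give neither sex nor age, and whether each replicate is a different animal is not stated, so a p-value here speaks of sample-to-sample spread that may be technical.

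Astrocytes wrap synapses and blood vessels, clear glutamate and potassium, couple to each other through gap junctions and pass lactate, cholesterol and lipoproteins to neurons. In the hypothalamus they also sense glucose and peptides and respond to fasting and stress. Upon injury or inflammation they become reactive, a state in which intermediate filament genes such as Gfap and Vim increase. The genes were grouped by what their products do into water and ion balance and coupling (8 genes), lipid carriers and lipid activation (5), metabolism and amino acid transport (6), reactive and cytoskeletal genes (4), secreted proteins (4) and receptors with a fate regulator (4).

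Promoter sequences are shown for 4 genes that the results return to: the gap junction genes Gja1 and Gjb6, whose levels are compared below, Gfap as the filament gene of reactive astrocytes, and Agt as an abundant secreted product. The RefSeq promoter table (GRCm38.p6) matched 27 of the 31 genes with 37 windows of 250 bases before to 50 bases after an annotated start. Each window was searched on both strands for a nuclear factor I site TTGGCA, a STAT site TTCCNNGAA, an AP-1 site TGANTCA and a TATA box TATAAA, motifs chosen after expression values had been seen. The stretches printed run 5′ to 3′ on the gene's strand, end 20 bases after the start, and carry the matches in capitals.
Gja1, chr10:56377050-56377319, plus strand: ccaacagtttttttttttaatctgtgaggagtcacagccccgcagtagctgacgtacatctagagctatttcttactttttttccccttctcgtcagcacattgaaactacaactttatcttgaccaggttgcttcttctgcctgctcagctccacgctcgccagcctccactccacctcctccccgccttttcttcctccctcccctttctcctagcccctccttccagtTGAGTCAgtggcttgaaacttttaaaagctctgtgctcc
Gjb6, chr14:57133592-57133861, minus strand: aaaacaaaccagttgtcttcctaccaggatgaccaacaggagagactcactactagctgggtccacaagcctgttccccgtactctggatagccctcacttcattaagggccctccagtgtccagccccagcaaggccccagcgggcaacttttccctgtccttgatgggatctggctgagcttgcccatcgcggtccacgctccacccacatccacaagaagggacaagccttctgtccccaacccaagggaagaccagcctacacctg
Gfap, chr11:102897181-102897450, minus strand: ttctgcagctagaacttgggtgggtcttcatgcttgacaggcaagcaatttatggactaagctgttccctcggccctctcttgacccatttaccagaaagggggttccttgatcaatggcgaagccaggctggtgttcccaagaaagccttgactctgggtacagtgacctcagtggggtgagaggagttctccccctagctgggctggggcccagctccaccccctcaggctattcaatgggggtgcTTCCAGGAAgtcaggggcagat
Agt, chr8:124569687-124569956, minus strand: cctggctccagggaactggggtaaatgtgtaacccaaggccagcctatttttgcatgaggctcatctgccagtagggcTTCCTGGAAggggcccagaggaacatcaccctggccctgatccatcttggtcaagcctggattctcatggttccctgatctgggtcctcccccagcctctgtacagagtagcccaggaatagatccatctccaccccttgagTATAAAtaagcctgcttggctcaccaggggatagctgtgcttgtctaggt

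The Gja1 window held an AP-1 match whose first base lay at -19 from the start, and the Gjb6 window held none of the 4 motifs. The Gfap window, which starts inside the longer gene model of GENCODE M21, held a STAT match that begins at -2 and runs across the start. The Agt window held a STAT match at -172 and a TATA box at -30. STAT matches were present in 3 of the 37 windows of astrocyte genes (8.11%), against 4.81% of all 32851 windows in the table. AP-1 matches were present in 3 (8.11%), against 7.81% of all windows. TATA boxes were present in 7 (18.9%), against 13.6%, and nuclear factor I sites in 4 (10.8%), against 14.1%. These matches describe letters in the windows, and binding was not measured.

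The astrocyte genes were abundant. Their means over the 4 libraries ran from 7.47 FPKM (Sox9) to 1382 FPKM (Apoe), with 8 genes above 100 FPKM, 20 between 20 and 100 FPKM and 3 below 20 FPKM. Within a library the median of the genes lay at the 90.9th percentile of all genes kept, and the lowest position of any gene was the 58.5th percentile, held by Sox9. Together they took 1.38% ± 0.0510 (SD, n = 4) of each library's summed FPKM, and 63.5% of that came from the 4 most abundant genes, Apoe, Cst3, Ndrg2 and Clu. No astrocyte gene was at 0 in any library, so the defining markers of astrocytes were all present in the tissue. The tissue is bulk, so fewer cells of a type and less RNA per cell cannot be told apart, and many of the genes are also transcribed at lower levels by neurons, other glia or vessels.

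The deposited values do not fix the depth of the libraries. Low values gathered loosely at steps that would correspond to about 19900000 to 21200000 fragments per library, but only 20.7% to 25.5% of them were whole steps, beside 10% for evenly spread values, so this is a rough figure and no fragment numbers are given for single genes. Mitochondrial genes took 19.1% to 22.2% of the summed FPKM, and Pearson's r between libraries, across genes that are not independent replicates, was 0.972 to 0.981. Replicate 1 stood apart in the summed level of genes listed for Bergmann glia and hindbrain astrocytes, at 8.27 FPKM against 0.761 to 0.960 FPKM in the other libraries. The largest part of that sum was Slc6a5, known from inhibitory neurons of the hindbrain, while Gdf10 lay close to the other libraries (values further on). Replicate 4 stood apart in the summed level of choroid plexus genes, at 58.5 FPKM against 8.86 to 9.87 FPKM. Leaving out replicate 1 or replicate 4 left the number of astrocyte genes called against Aldh1l1, the comparison given further on, at 24 of 30 higher and 1 lower, the numbers found with all 4 libraries, where 17.9% of all genes tested were called higher and 75.2% lower.

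**Figure D1:**
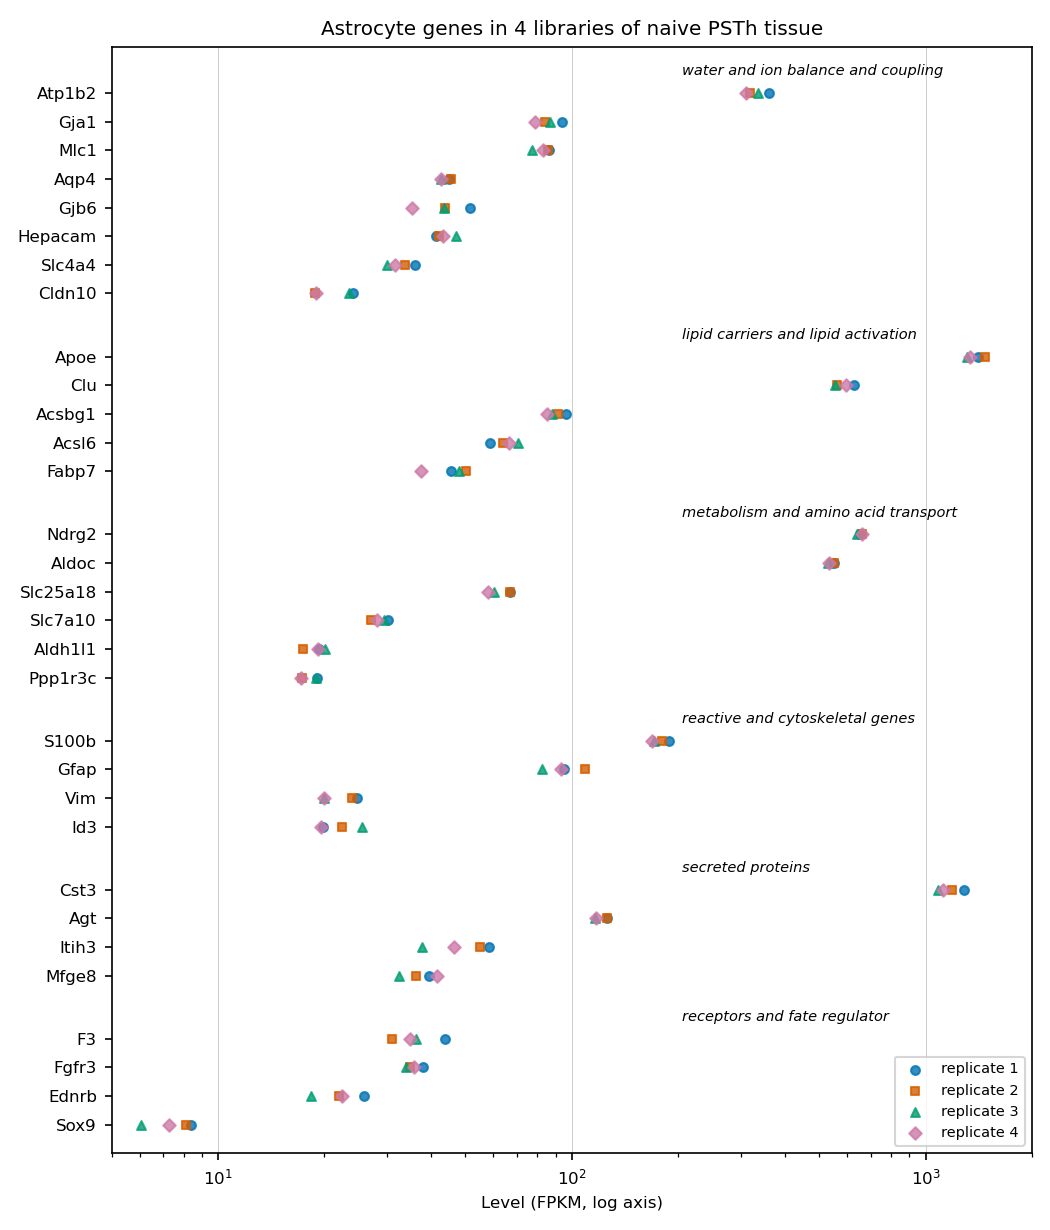
Level of each astrocyte gene in FPKM (log axis), 1 point per library, grouped by function and ordered by mean within each group. Apoe and Cst3 lie at 1085 FPKM or above in all 4 libraries, Sox9 lies at 8.39 FPKM or below, and the highest library of any gene is at most 1.55 times its lowest.

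Genes of water and ion balance and of cell coupling came to a summed level of 687 ± 40.0 FPKM (SD, n = 4). Atp1b2, the beta subunit of the sodium pump that is typical of astrocytes, was the most abundant of them. It had 362, 319.5, 337 and 312 FPKM in replicates 1 to 4, the order used for all values of single libraries here. Aqp4, the water channel of astrocyte endfeet, had 45.0, 45.7, 42.8 and 42.7 FPKM. The 4 values of Aqp4 lay within 3 FPKM of each other, with a coefficient of variation (SD over mean) of 3.40%, the smallest of the group. Mlc1 and Hepacam encode a pair of membrane proteins that sit together at astrocyte junctions. Mlc1 had 86.3, 85.9, 77.1 and 82.7 FPKM. Hepacam had 41.4, 42.2, 47.1 and 43.3 FPKM, with its highest value in replicate 3 where Mlc1 had its lowest. Slc4a4, the sodium bicarbonate cotransporter, had 36.0, 33.8, 30.1 and 31.6 FPKM. Cldn10, a claudin found in astrocytes and epithelia, had 24.1, 18.8, 23.5 and 19.0 FPKM, with replicates 1 and 3 above replicates 2 and 4.

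Gja1 and Gjb6 encode the main gap junction proteins of astrocytes, and both were highest in replicate 1 and lowest in replicate 4. Gja1 had 93.9, 84.1, 87.0 and 78.5 FPKM. Gjb6 had 51.7, 43.9, 43.6 and 35.4 FPKM. The highest Gjb6 value lay below the lowest Gja1 value, so the 2 genes did not overlap. Gja1 was higher than Gjb6 in 4 of 4 libraries, by 0.98 ± 0.12 log2 units (SD, n = 4). Differences of this kind were taken for 13 pairs of genes, and in each pair the same gene was higher in all 4 libraries. The exact two-sided sign-flip permutation test then gave its smallest possible p over 4 libraries, 0.13, for all 13 pairs, also after Benjamini-Hochberg adjustment over them. This test cannot reach 0.05 with 4 libraries. Multiplied by transcript length (the longest transcript of the gene model), a quantity closer to fragments than to molecules, the difference was 1.87 log2 units.

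Gjb2, another connexin made by astrocytes and by cells of the meninges, had 8.02, 5.37, 5.33 and 4.48 FPKM. Gja1 was 3.90 ± 0.25 log2 units above Gjb2 (SD, n = 4, higher in 4 of 4 libraries). Among the abundant connexins that are not on the astrocyte list were Gjb1 and Gjc3, connexins of oligodendrocytes. Gjb1 had 30.1, 34.3, 40.9 and 34.6 FPKM, and Gjc3 had 23.05, 29.1, 35.7 and 28.9 FPKM. Of 10 connexins, 5 passed as higher than Aldh1l1, among them Gja1, Gjb6, Gjb1 and Gjc3, and 5 as lower. Over all genes tested the shares were 17.9% and 75.2%. Gjb1 and Gjc3 were lowest in replicate 1 and highest in replicate 3, while Gja1, Gjb6 and Gjb2 were highest in replicate 1 and lowest in replicate 4.

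**Figure D2:**
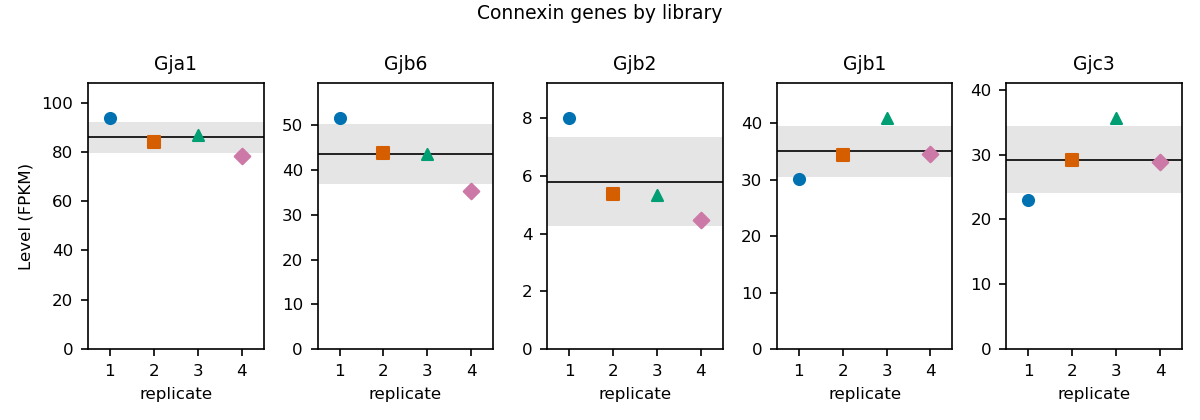
Level of 5 connexin genes in FPKM by library, on axes that start at 0 and differ between panels. The line is the mean and the band the mean ± SD over 4 libraries. Gja1, Gjb6 and Gjb2 are highest in replicate 1, and Gjb1 and Gjc3 are highest in replicate 3.

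Aqp4 is held at endfeet by the dystrophin complex next to the potassium channel Kcnj10. Kcnj10 had 84.6, 82.5, 92.7 and 77.6 FPKM, and Aqp4 was 0.93 ± 0.12 log2 units below it (SD, n = 4, lower in 4 of 4 libraries). Of the other genes listed with that complex, which include channels, the most abundant were Dtna, a dystrobrevin, at 13.2 to 21.9 FPKM and the channel Kcnj16 at 14.0 to 17.8 FPKM. Of the 8 genes of this list, channels included, 1, Kcnj10, passed as higher than Aldh1l1, the enzyme used as the common yardstick (limma, adjusted p under 0.05), and 4 passed as lower. All 6 sodium pump subunits listed passed as higher, where 17.9% of all genes tested were higher and 75.2% lower. The most abundant subunit was Atp1b1, a beta subunit found in many cell types, at 812 to 889 FPKM. Atp1b2 was 1.34 ± 0.10 log2 units below Atp1b1 (SD, n = 4, lower in 4 of 4 libraries).

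Lipid carriers and lipid-activating enzymes held the most abundant astrocyte gene and summed to 2167 ± 87.5 FPKM (SD, n = 4). Apoe, the main lipoprotein of the brain, had 1411, 1474, 1308 and 1335 FPKM. Clu, which encodes the lipoprotein and chaperone clusterin, had 628, 561, 553 and 595 FPKM. The 2 genes did not overlap, and Apoe was 1.24 ± 0.11 log2 units above Clu (SD, n = 4, higher in 4 of 4 libraries). Acsbg1 and Acsl6 activate long-chain fatty acids by joining them to coenzyme A. Acsbg1 had 96.2, 91.5, 87.8 and 84.9 FPKM. Acsl6 had 58.6, 64.1, 70.3 and 66.4 FPKM, and it was lowest in replicate 1, where Acsbg1 was highest. Acsbg1 was 0.48 ± 0.18 log2 units above Acsl6 (SD, n = 4, higher in 4 of 4 libraries), but multiplied by transcript length it was 0.54 log2 units below it, a difference of -0.54. Fabp7, the brain fatty acid binding protein of radial glia and astrocytes, had 45.6, 50.2, 48.0 and 37.4 FPKM, with replicate 4 below the other libraries. Fabp7 was 1.28 ± 0.18 log2 units below Fabp5 (SD, n = 4, lower in 4 of 4 libraries), which had 106, 105, 122 and 105 FPKM. Multiplied by transcript length that difference was -3.16 log2 units.

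Around these genes, 3 of 12 genes of lipoprotein secretion and uptake passed as higher than Aldh1l1 and 6 as lower. The shares of all genes tested were 17.9% and 75.2%, also for the lists that follow here. Besides Apoe and Clu the most abundant were Apod, a lipocalin made by oligodendrocytes, at 228 to 268 FPKM, the acyltransferase Lcat at 16.8 to 24.0 FPKM, and the receptor Lrp1 at 18.03 to 21.4 FPKM. Of 6 acyl-CoA synthetases 3 passed as higher and 3 as lower. Acsl3, which is no astrocyte gene of the list, had 71.5, 74.6, 97.4 and 75.4 FPKM, and its highest library was replicate 3. Acsl1 stood at 11.96 to 12.98 FPKM and Acsl4 at 11.3 to 12.6 FPKM. All 3 fatty acid binding proteins passed as higher, with Fabp3 at 47.1 to 53.1 FPKM.

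Genes of metabolism and amino acid transport varied least, with a median coefficient of variation of 5.22% and a summed level of 1323 ± 19.6 FPKM (SD, n = 4). Ndrg2, a cytoplasmic protein used as an astrocyte marker, had 654, 659.7, 639 and 660.3 FPKM. Its coefficient of variation, 1.54%, was the smallest of the 31 genes. Aldoc, the brain form of the glycolytic enzyme aldolase, had 551, 549.6, 531 and 532 FPKM. Aldoa, the form found in neurons and most tissues, had 1224, 1174, 1151 and 1184 FPKM, and Aldoc was 1.13 ± 0.03 log2 units below it (SD, n = 4, lower in 4 of 4 libraries). Multiplied by transcript length that difference was -0.28 log2 units.

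Slc25a18, a mitochondrial glutamate carrier, had 66.9, 66.7, 60.4 and 58.0 FPKM. Slc7a10, a transporter of small neutral amino acids including serine, had 30.3, 27.1, 29.4 and 28.1 FPKM. Aldh1l1, the folate enzyme that is used as a general astrocyte marker, had 19.3, 17.4, 20.1 and 19.2 FPKM. Ppp1r3c, which targets a phosphatase to glycogen, the sugar store of astrocytes, had 19.0, 17.3, 18.9 and 17.2 FPKM. Aldh1l1 and Ppp1r3c overlapped over most of their ranges. Ppp1r3c was 2.78 ± 0.24 log2 units above Ppp1r3d, another targeting subunit (SD, n = 4, higher in 4 of 4 libraries). Of 11 glycogen genes 3 passed as higher than Aldh1l1 and 7 as lower, beside 17.9% and 75.2% of all genes tested. Those higher were Pygb, the brain glycogen phosphorylase, at 55.4 to 67.1 FPKM, Ugp2, which makes the sugar donor, at 42.0 to 49.9 FPKM, and Pygm, the phosphorylase known from muscle and astrocytes, at 26.8 to 33.3 FPKM.

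Genomic bases are shared by 3 of the astrocyte genes with a gene on the opposite strand, and whether strand was used in counting is not given in the sources used here, so reads of such pairs may be split uncertainly. These are Slc25a18 with Atp6v1e1, a proton pump subunit with a mean of 248 FPKM, Slc7a10 with Lrp3 at 20.7 FPKM, and S100b with Dip2a at 17.6 FPKM.

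Reactive and cytoskeletal genes came to a summed level of 316 ± 18.7 FPKM (SD, n = 4). S100b, a calcium-binding protein of astrocytes and some oligodendrocytes, had 188, 180.0, 171 and 169 FPKM. Gfap, the intermediate filament of astrocytes, had 94.8, 109, 82.2 and 93.1 FPKM, with replicate 2 at the top and replicate 3 at the bottom. Vim, the filament shared with vessels and progenitors, had 24.8, 23.99, 19.9 and 19.96 FPKM. Gfap was 2.09 ± 0.13 log2 units above Vim (SD, n = 4, higher in 4 of 4 libraries). Id3, a transcriptional inhibitor that is also made by endothelial cells, had 19.8, 22.4, 25.5 and 19.5 FPKM, with its top in replicate 3, where Gfap and Vim had their lowest values.

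Genes known to be induced in reactive astrocytes were mostly lower than Aldh1l1, as are most genes (75.2% of all genes tested, against 17.9% higher). Gfap and Vim, which also increase in that state, are counted with the astrocyte genes and left out of the lists here. Gfap passed as higher than Aldh1l1, by 2.31 log2 units, and Vim, at 0.22, did not pass. Of 11 pan-reactive genes, described in mouse brain after inflammation or ischaemia, 0 passed as higher than Aldh1l1 and 9 as lower by limma with Benjamini-Hochberg adjustment, with a median log2 difference of -3.96. At an unadjusted limma p under 0.05 the number higher was also 0. The most abundant were Serpina3n, a protease inhibitor, with 22.0, 25.2, 13.0 and 17.7 FPKM, the small heat shock protein Hspb1 with 32.2, 13.7, 15.5 and 10.6 FPKM, and the copper protein Cp with 6.11, 4.77, 4.27 and 3.91 FPKM. Of 12 neuroinflammatory reactive genes 1 passed as higher, the class I histocompatibility gene H2-D1, and 10 as lower. H2-D1 had 42.2, 38.5, 31.0 and 35.7 FPKM, the adhesion protein Amigo2 had 16.2, 21.6, 10.2 and 14.1 FPKM, and the complement inhibitor Serping1 had 16.3, 8.54, 8.28 and 6.43 FPKM. Ugt1a1, a further gene of that list, was listed at 0 in every library. Hspb1 and Serping1 in replicate 1 lay well above the other libraries.

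Among intermediate filaments the most abundant were those of neurons, Nefl at 194 to 267 FPKM, Nefm at 86.9 to 126 FPKM and Ina at 91.1 to 109 FPKM. Of 8 filament genes, 5 passed as higher than Aldh1l1 and 2 as lower, beside 17.9% and 75.2% of all genes tested.

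Secreted proteins summed to 1377 ± 103 FPKM (SD, n = 4). Cst3, the protease inhibitor cystatin C, which microglia also make, had 1284, 1190.3, 1085 and 1117 FPKM. Agt, angiotensinogen, the precursor of angiotensin peptides that astrocytes supply to the brain, had 126, 126, 116 and 117 FPKM. Replicates 1 and 2 of Agt lay above replicates 3 and 4. Mfge8, a bridging protein for the uptake of dying cells and debris, had 39.6, 36.3, 32.6 and 41.6 FPKM, and Agt was 1.69 ± 0.15 log2 units above it (SD, n = 4, higher in 4 of 4 libraries). Itih3, a heavy chain that binds the matrix sugar hyaluronan, had 58.4, 55.03, 37.7 and 46.3 FPKM. Its coefficient of variation, 18.8%, was the largest of the 31 genes.

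Of 9 genes of the angiotensin system, Agt included, 2 passed as higher than Aldh1l1 and 7 as lower, shares near the 17.9% and 75.2% of all genes tested. Atp6ap2, the prorenin receptor and a proton pump accessory subunit, had 135 to 158 FPKM. The peptidase Lnpep had 9.86 to 11.4 FPKM and the converting enzyme Ace 5.06 to 8.17 FPKM. The tenth gene, the renin gene Ren1, was under the filter and listed at 0 in replicates 2 and 4.

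The receptors were highest in replicate 1 without exception, and so was Sox9. F3, tissue factor, the starter of coagulation, had 43.7, 31.0, 36.4 and 34.9 FPKM. Fgfr3, the FGF receptor of astrocytes, had 37.9, 34.9, 33.9 and 35.8 FPKM. Fgfr3 was 0.79 ± 0.13 log2 units above Fgfr1 (SD, n = 4, higher in 4 of 4 libraries). Ednrb, the endothelin receptor of astrocytes, had 25.9, 21.9, 18.3 and 22.4 FPKM. Ednra, the endothelin receptor of smooth muscle and pericytes, had 2.01, 1.46, 1.14 and 1.42 FPKM, and Ednrb was 3.80 ± 0.13 log2 units above it (SD, n = 4, higher in 4 of 4 libraries). Sox9, the transcription factor that sets astrocyte fate and stays in mature astrocyte nuclei, had 8.39, 8.14, 6.06 and 7.28 FPKM.

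Ligands of these receptors differed in level. Fgf1, an FGF of neurons, had 34.0 to 42.4 FPKM and passed as higher than Aldh1l1, as did Fgfr3, and 2 of the 6 FGF receptors and ligands listed passed as lower. Fgfr2 had 19.2 to 21.7 FPKM and Fgfr1 17.1 to 22.8 FPKM. In the endothelin system 0 of 6 genes passed as higher by limma and 4 as lower. At an unadjusted limma p under 0.05 the number higher was also 0. Among all genes tested 17.9% passed as higher and 75.2% as lower. The converting enzymes Ece2 and Ece1 had 17.7 to 24.8 FPKM and 9.26 to 13.3 FPKM. Of the ligands Edn3 had 1.56 to 1.79 FPKM and Edn2 was listed at 0 in every library.

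To set all genes on 1 scale, each was compared with Aldh1l1 within the library, as a log2 difference of FPKM + 0.1, a pseudocount that understates differences of low genes. The limma test with Benjamini-Hochberg adjustment over 17629 genes called 24 of the other 30 astrocyte genes higher than Aldh1l1 and 1 lower, and 5 did not pass at an adjusted p of 0.05. Of all genes tested 17.9% were called higher and 75.2% lower. Aldh1l1 ranked 29 among the 31 astrocyte genes by mean level, so a high count above this low yardstick follows largely from its choice. The median difference of the 30 astrocyte genes was 1.30 log2 units. Apoe stood 6.18 log2 units above Aldh1l1 (SE 0.09, limma adjusted p 4.34e-06), a 72.5-fold difference in FPKM. Cst3 stood 5.94 log2 units above it, Ndrg2 5.10, Clu 4.94, Aldoc 4.83 and Atp1b2 4.12. S100b followed at 3.21 log2 units, Agt at 2.67, Gfap at 2.31, Acsbg1 at 2.24, Gja1 at 2.17 and Mlc1 at 2.12.

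The genes nearer to Aldh1l1 that passed ran from Acsl6, at 1.77 log2 units (SE 0.08, limma adjusted p 1.87e-05), to Slc7a10, at 0.60 (SE 0.07, limma adjusted p 0.000585), all of them higher in 4 of 4 libraries. Sox9 was the gene called lower, by a log2 difference of -1.34 (SE 0.13, limma adjusted p 0.000293, lower in 4 of 4 libraries). Vim (0.22), Ednrb (0.21), Id3 (0.19), Cldn10 (0.16) and Ppp1r3c (-0.07, a log2 difference like the others) did not pass. By function, genes higher than Aldh1l1 were 7 of 8 for water and ion balance, 5 of 5 for lipids, 4 of 5 for metabolism, 2 of 4 for reactive genes, 4 of 4 for secreted proteins and 2 of 4 for receptors and Sox9. Beside these, 17.9% of all genes tested were higher and 75.2% lower.

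These calls rest on FPKM being a level per length. With values multiplied by transcript length, 19 genes were called higher and 6 lower, beside 2560 higher and 11714 lower of all 15382 genes tested. The direction turned for Slc7a10 (-0.50), Cldn10 (-0.81), F3 (-0.22), Fabp7 (-0.997), Id3 (-1.51) and Vim (-0.29) on the log2 scale. A turned direction is not a call, and these genes are not the same set as the 6 called lower, which include Sox9. Ppp1r3c moved further below Aldh1l1, its longest transcript being shorter (2725 against 4175 bases). Gjb6 (0.20) and Mfge8 (0.14) no longer passed. Over the alternatives run, 2 comparisons with Aldh1l1 that had not passed did so in the same direction. Among them was Ednrb without replicate 3, at 0.33 log2 units (limma adjusted p 0.0278).

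**Figure D3:**
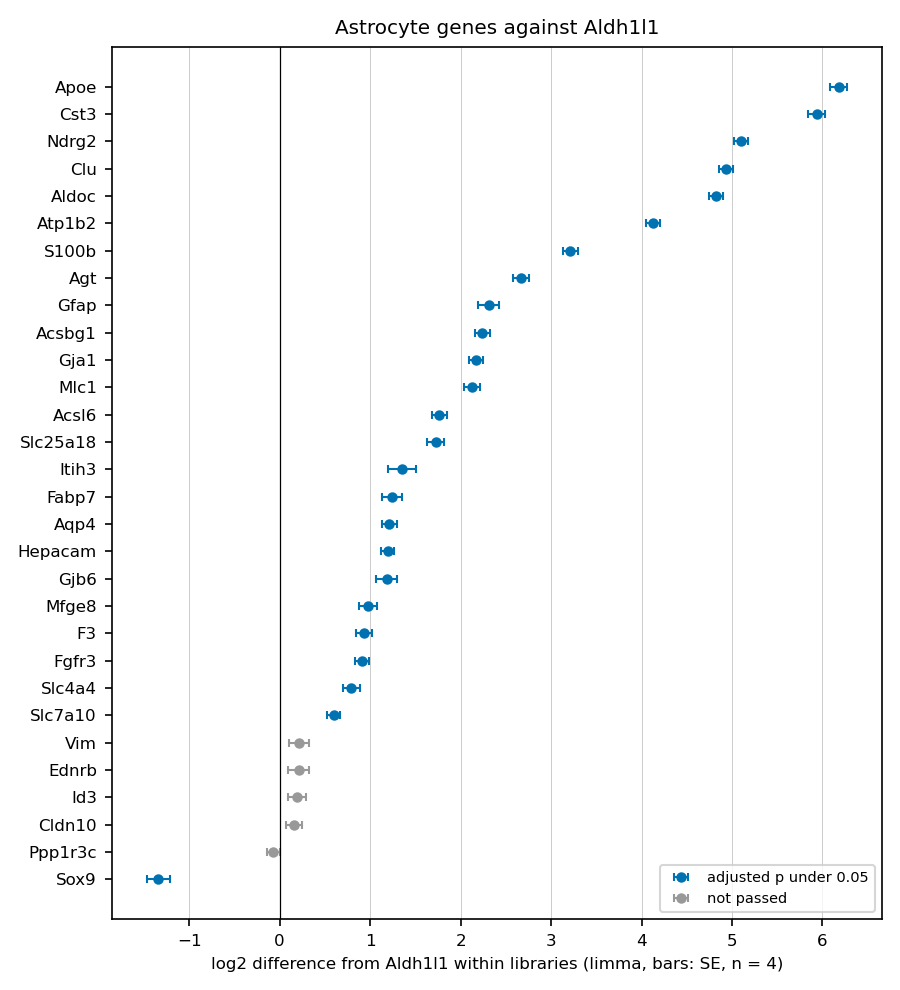
Log2 difference of each astrocyte gene from Aldh1l1 within libraries, with bars of 1 SE from limma over 4 libraries. Filled blue points passed an adjusted p of 0.05, and grey points did not. Apoe lies 6.18 log2 units to the right and Sox9 lies at -1.34.

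A second list of 30 astrocyte genes shares no gene with the 31. It gave 18 genes higher than Aldh1l1, 8 lower and 4 that did not pass, with a median of 1.24 log2 units. Beside it, 17.9% of all genes tested were higher and 75.2% lower. The most abundant were the matrix protein Sparcl1 at 938 to 1004 FPKM, glutamine synthetase Glul at 518 to 569 FPKM and the metallothionein Mt1 at 268 to 314 FPKM. Genes known to mark astrocytes of the telencephalon were low apart from Hopx, at 11.4 to 16.4 FPKM. Lhx2 had 1.34 to 3.27 FPKM and Emx2 0.824 to 1.22 FPKM.

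Differences between the libraries were small for every astrocyte gene. The median coefficient of variation was 7.18%, with a range of 1.54% to 18.8%, beside a median of 7.40% for 7266 other genes within the same range of levels. A test of the variance of each gene against that of genes of like level (limma with a trended robust prior, upper tail) called 0 of the 31 genes and 0 of all 17630 genes, 0.0%. With 4 libraries it did not call even Ttr, whose variance ratio was 218 (limma adjusted p 0.0807), so the absence of calls does not show that levels were stable. At an unadjusted p under 0.05 it took 1 of the 31, Itih3 (limma p 0.0280, adjusted p 0.757), and 1031 of all 17630. The variance was below that of like genes in 12 of the 31, against 52.7% of all genes, and the median ratio was 1.23 against 0.930.

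Even so, most astrocyte genes leaned the same way in replicate 1. Set against the mean of the other libraries on the log2 scale, 28 of 31 genes were higher in replicate 1, with a median of 0.12, beside 49.9% of all genes and a median of -0.00. In replicate 2 it was 18 of 31 with a median of 0.03, beside 59.1% of all genes and a median of 0.04, and under median-of-ratios scaling the median of the astrocyte genes turned to -0.01. In replicate 3 it was 12 of 31 with a median of -0.05, beside 41.9% and a median of -0.05. In replicate 4 it was 7 of 31 with a median of -0.07, beside 52.7% and a median of 0.01. These are values of single libraries and have no test. No gene differed by more than 0.5 log2 units in any library, and 9 differed by more than 0.25 in at least 1 library. The farthest was Itih3 in replicate 3, at -0.49. Lower in replicate 1 were Acsl6 (-0.19), Id3 (-0.17) and Hepacam (-0.09).

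**Figure D4:**
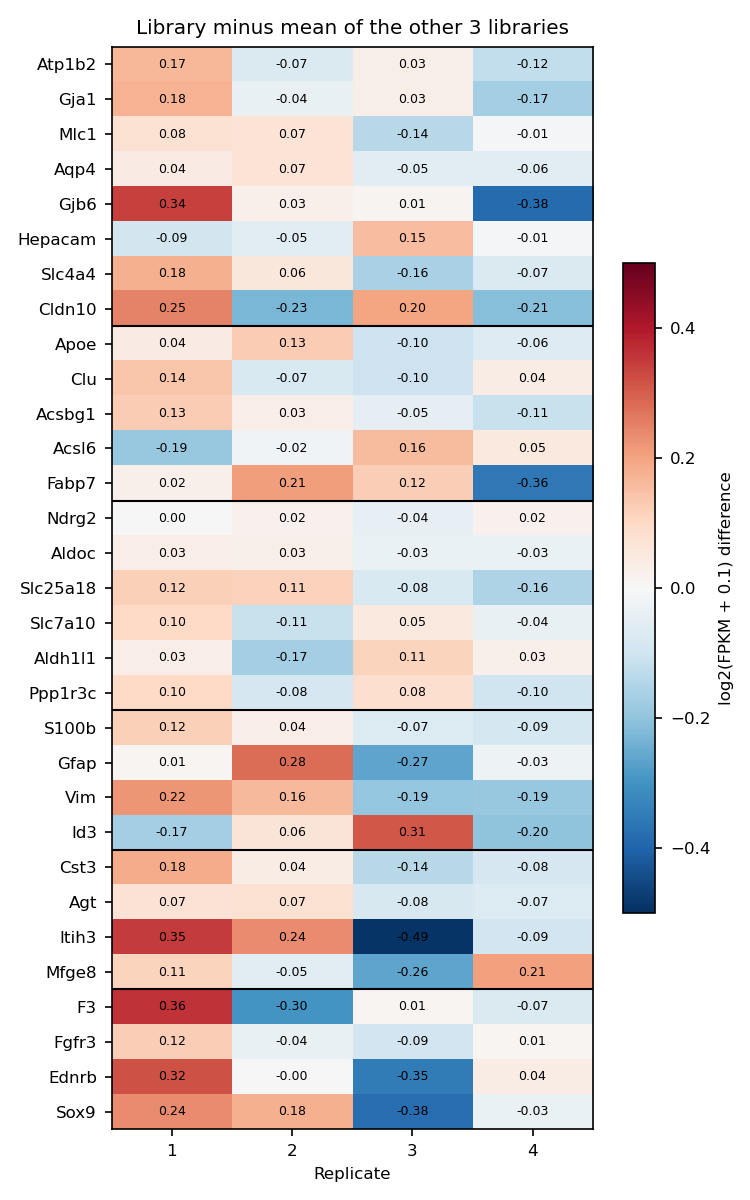
Difference of each library from the mean of the other 3 on the log2(FPKM + 0.1) scale, for the 31 astrocyte genes in order of function. In replicate 1 28 of 31 genes are above 0, and the farthest value is -0.49, for Itih3 in replicate 3.

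The functions shared this lean to unequal degrees. In replicate 1 the median was 0.28 for the receptors and Sox9 (4 of 4 genes higher), 0.17 for water and ion balance (7 of 8), 0.15 for secreted proteins (4 of 4), 0.07 for metabolism (6 of 6), 0.07 for reactive genes (3 of 4) and 0.04 for lipids (4 of 5). Replicate 4 had water and ion balance at -0.10 (0 of 8 higher) and reactive genes at -0.14 (0 of 4). Replicate 3 had secreted proteins at -0.20 (0 of 4) and receptors with Sox9 at -0.22 (1 of 4). In replicate 2 the reactive genes had a median of 0.11, with 4 of 4 above the mean of the other libraries and Gfap alone highest there. Medians of the lipid group in replicates 2 and 3 lay so near 0 that median-of-ratios scaling turned their sign, to -0.01 and 0.00, and no direction is given for them.

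Markers of other cell types differed between the same libraries, some by much more. The sum of 10 oligodendrocyte markers, led by Mbp and Mobp, was 6072, 7002, 8801 and 8191 FPKM, with a median log2 difference of -0.44 in replicate 1 (0 of 10 higher) and 0.34 in replicate 3 (10 of 10). The variance test took 9 of these 10 markers at an unadjusted limma p under 0.05 and 0 after adjustment. The 31 astrocyte genes summed to 6270.4, 6092, 5719 and 5802 FPKM. The order of the libraries by the astrocyte sum, with replicate 1 highest, then replicates 2, 4 and 3, was the reverse of their order by the oligodendrocyte sum. These sums are not scaled to library totals. As shares of summed FPKM the astrocyte genes took 1.416%, 1.421%, 1.317% and 1.349%, with replicate 2 highest. With mitochondrial genes left out of the total the shares were 1.819%, 1.757%, 1.680% and 1.682%, with replicate 1 highest. Mural and fibroblast markers, led by Vtn, Rgs5 and Acta2, summed to 192, 166, 152 and 136 FPKM and had a median of 0.56 in replicate 1 (7 of 10 higher) and -0.39 in replicate 4 (2 of 10). None of the 10 defining markers of either list was at 0 in any library. The part of these cell types in the values of the astrocyte genes was not tested.

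Neuron markers, led by Snap25, Syp and Eno2, summed to 3029 to 3256 FPKM, and their medians lay between -0.05 and 0.05. Microglia markers, among them Ctss and C1qb, were higher in replicate 2 (10 of 10, median 0.18) and summed to 248 to 289 FPKM. Endothelial markers, led by Ly6c1, Itm2a and Cldn5, summed to 197 to 232 FPKM, with medians of -0.02, -0.04, 0.10 (9 of 10 higher) and -0.13 in replicates 1 to 4. Oligodendrocyte precursor markers, led by Olig1, C1ql1 and Gpr17, summed to 169 to 195 FPKM, with medians of -0.08, 0.06, -0.02 and 0.11. Ependymal markers, led by Rarres2, Tmem107 and Fam183b, summed to 48.0, 46.1, 40.9 and 41.9 FPKM, the same order of libraries as the astrocyte sum, with medians of 0.19 (6 of 10 higher), 0.11, -0.03 and -0.03. The part of ependymal cells in the values of the astrocyte genes was not tested. Tanycyte markers, led by Crym, Gpr50 and Lhx2, were low, at 17.4, 31.4, 11.2 and 23.4 FPKM in sum, with a median of 0.76 in replicate 2 (10 of 10 higher) and -0.83 in replicate 3. Vim, Fabp7 and Gfap are also made by tanycytes, and stood at 0.16, 0.21 and 0.28 in replicate 2, where 59.1% of all genes were higher, and at -0.19, 0.12 and -0.27 in replicate 3. The part of tanycytes in these values was not tested.

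The second list of astrocyte genes had a median of 0.08 in replicate 1 (19 of 30 higher), 0.02 in replicate 3 and -0.06 in replicate 4 (10 of 30). Pan-reactive genes had a median of 0.29 in replicate 1 (9 of 11 higher) and -0.19 in replicate 4 (2 of 11), and neuroinflammatory reactive genes had 0.21 in replicate 1 (9 of 12) and -0.22 in replicate 4 (2 of 12). Of the reactive and cytoskeletal astrocyte genes, Vim stood at 0.22 in replicate 1, S100b at 0.12, Gfap at 0.01 and Id3 at -0.17.

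**Figure D5:**
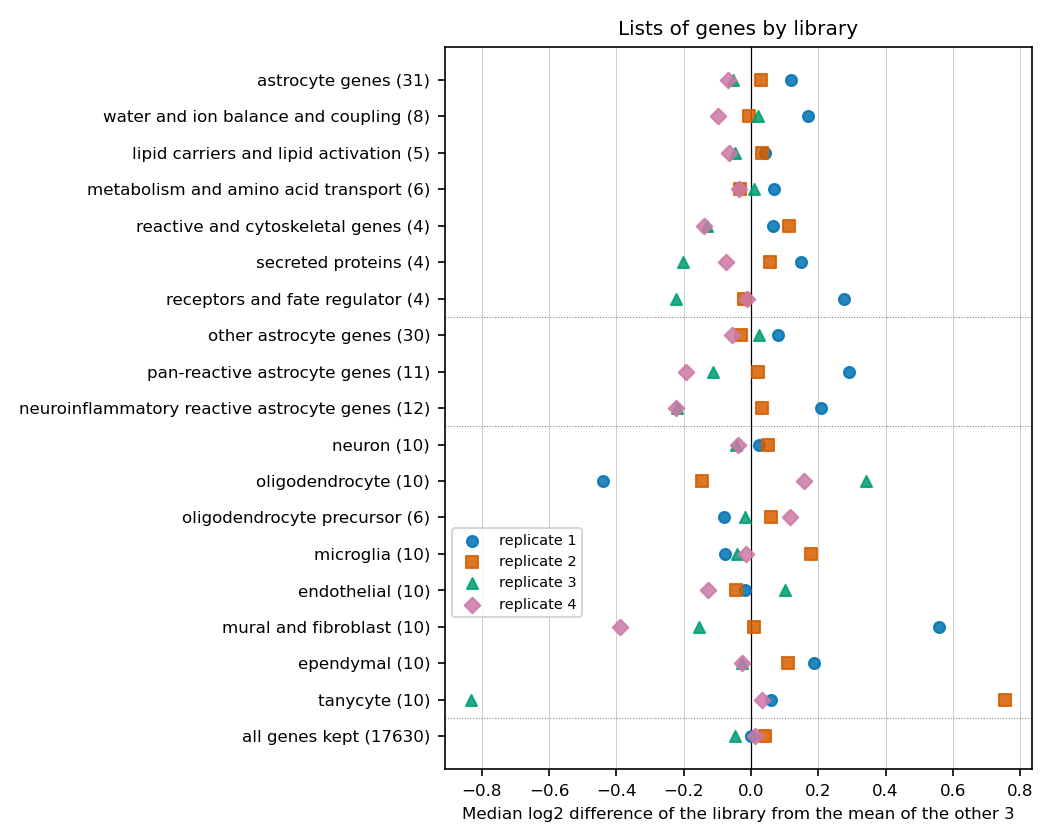
Median log2 difference of each library from the mean of the other 3, for the astrocyte genes, their functions, further astrocyte lists, markers of other cell types and all genes kept, with the number of genes in brackets. The astrocyte genes lie between -0.07 and 0.12, and the oligodendrocyte markers between -0.44 and 0.34.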

How the data were processed

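RNA-seq libraries were made from 4 PSTh samples with an mRNA kit after TRIzol extraction, per the labels' protocols. The submitters' processing notes give GRCm38 as the genome build, and the sources used here do not give the aligner, quantifier, annotation or strand setting. The values the authors deposited are read here as FPKM from their behaviour (not whole, unequal totals, steps that scale with length), since no header names the unit. Only 20.7% to 25.5% of values below 0.3 FPKM were whole steps to a tolerance of 0.05, beside 10% for evenly spread values, so reads were not recovered and no counting intervals are given.

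The group and the replicate numbers come from the labels, and the column of the third sample is headed C in place of a number. Of 25044 entries 22036 had Ensembl identifiers, and 22022 matched GENCODE M21, the source of symbols. Where identifiers shared a symbol (20 symbols), the most abundant was used. Genes whose mean was at least 0.1 FPKM entered the tests on the log2(FPKM + 0.1) scale.

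Each gene was set against Aldh1l1 within libraries by an intercept-only limma fit, two-sided, whose prior degrees of freedom were capped at the value from fitting each gene's own level. Variance between libraries was tested by limma with a trended robust prior. Both tests used Benjamini-Hochberg adjustment over all genes at 0.05 and were checked on simulated data. Pairs of genes were tested by exact sign-flip permutation, and lists by library have no test. Python 3.11.15, pandas 2.3.3, numpy 2.4.6, matplotlib 3.10.9, R 4.3.3 and limma 3.58.1 were used.

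The genes and lists were chosen with earlier results of these data known. Named were every astrocyte gene, the genes of the pairs, and the 3 most abundant other genes of each list, leaving out a few that are not reported here but enter the counts and sums of their lists. Other names were chosen after their values were seen.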

Additional observations from a re-analysis of the deposited data

Results flagged for a closer look

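Dixon's test at the 95% level looks for a library far from the others, and chance alone takes about 5% of values. It was run on 57 values and took 3, and none of them belonged to the 31 astrocyte genes. Fabp5, the fatty acid binding protein set beside Fabp7, was at 122 FPKM in replicate 3, against 105 to 106 FPKM in the other libraries. The sum of 8 choroid plexus genes was 58.5 FPKM in replicate 4, against 8.86 to 9.87 FPKM in the others, and most of it was Ttr, the transthyretin of that tissue, at 49.7 FPKM against 0.587 to 1.99 FPKM. The next in that list, Otx2 and Clic6, were at 2.22 and 2.64 FPKM in replicate 4, within the range of the other libraries. The sum of 5 genes of Bergmann glia and hindbrain astrocytes was 8.27 FPKM in replicate 1, against 0.761 to 0.960 FPKM in the others. There Slc6a5, a glycine transporter known from inhibitory neurons of the hindbrain, was at 4.83 FPKM against 0.0745 to 0.361 FPKM, Hoxb5 was at 1.90 FPKM and listed at 0 in the others, and Gdf10 was at 0.862 FPKM against 0.599 to 0.840 FPKM.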

How the results depend on the processing

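Samples could not be paired between groups because the 4 libraries form 1 group, and genes were compared as differences within libraries. Other pseudocounts, filters, priors and left-out libraries kept the astrocyte genes higher than Aldh1l1 at 24 or 25 and the lower ones at 1. Against Aqp4 in place of Aldh1l1, 14 were higher and 12 lower, by construction of a higher yardstick. Of all 17629 genes tested, 1428 were higher and 15778 lower than Aqp4. Multiplied by the longest annotated transcript, an upper guess of length, 19 were higher than Aldh1l1 and 6 lower, beside 2560 and 11714 of all 15382 genes tested. Pair differences then became 1.87 (Gja1 and Gjb6), 4.60 (Gja1 and Gjb2), -0.28 (Aldoc and Aldoa), -0.54 and so reversed (Acsbg1 and Acsl6), 0.88 (Apoe and Clu), 1.39 (Agt and Mfge8), 1.95 (Gfap and Vim), 4.05 (Ednrb and Ednra), 0.54 (Fgfr3 and Fgfr1), -0.80 (Atp1b2 and Atp1b1) and -3.16 (Fabp7 and Fabp5). Single genes reversed against Aldh1l1 under length were Slc7a10 (-0.50), Cldn10 (-0.81), F3 (-0.22), Fabp7 (-0.997), Id3 (-1.51) and Vim (-0.29). A pseudocount of 1 gave 3.20 for Ednrb and Ednra and 2.42 for Ppp1r3c and Ppp1r3d. No astrocyte gene passed the variance test in any setting, while over all genes 4 passed without replicate 3, 8 without replicate 4 and 2556 of 25044 with no filter on low values, where genes at 0 enter. The median lean of the astrocyte genes in replicate 1 was 0.10 to 0.12, and in replicate 2 it turned to -0.01 under median-of-ratios scaling. Depth limits the genes near 0 FPKM in the reactive, hindbrain and tanycyte lists more than the astrocyte genes. Having 1 group, a unit inferred from values and replicates of unknown origin limit every p.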

Other observations

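The second list of astrocyte genes held the uptake system for transmitters, named here after its values were seen. Slc1a2 and Slc1a3, the glutamate transporters of astrocytes, had 98.9 to 105 FPKM and 55.7 to 78.6 FPKM, and both passed as higher than Aldh1l1, by 2.41 (SE 0.07, limma adjusted p 6.52e-06) and 1.90 log2 units (SE 0.14, limma adjusted p 9.96e-05) in 4 of 4 libraries. Slc6a11, a GABA transporter that is strong in astrocytes of the thalamus and hypothalamus, had 214 to 240.3 FPKM, and the glycine transporter Slc6a9 had 53.8 to 57.3 FPKM. The neurotensin receptor Ntsr2 had 141 to 166 FPKM, and the orphan receptor Gpr37l1 had 123 to 144 FPKM. Transcription factors of the lineage were low, as Sox9 was, with Nfia at 3.66 to 5.54 FPKM and Nfib at 2.58 to 3.72 FPKM, while Sox2 at 17.2 to 21.8 FPKM and Id4 at 17.8 to 21.9 FPKM stood near Aldh1l1 and did not pass (limma adjusted p 0.630 and 0.570).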
